A study of Mus musculus with 2 samples.

Results

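Zic1, Zic2, Zic4 and Zic5 encode zinc finger transcription factors of the Zic family, and their transcripts were followed here in the neural tube of the mouse embryo, the tissue that forms the brain and spinal cord. The 4 genes were chosen by name and not by any measured value. They are 4 of the 55536 genes, and of the 22028 protein-coding genes, that the GENCODE M21 annotation lists in the deposited tables. The study holds 1 group and no treatment: neural tube of B6NCrl embryos of both sexes, dissected at embryonic day 12.5 and pooled. Replicate 1 came from 120 pooled embryos and replicate 2 from 88, and 10 ng of RNA was primed with oligo-dT for each library. The design therefore has no contrast between conditions, and the comparisons it allows are between genes within a library and between the 2 libraries. Pooling means that a value is an average over many embryos and over every cell type that was dissected. In such bulk RNA, fewer cells of a type and less RNA per cell cannot be told apart.

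Zic proteins bind DNA through a run of C2H2 zinc fingers closely related to those of the GLI proteins, which carry the Sonic hedgehog signal. In the developing neural tube Zic genes are known for expression on the dorsal side, in the roof plate and dorsal progenitors, and also in the adjoining mesenchyme of somites and meninges. They are known for roles in neural tube closure, neural crest formation and growth of the cerebellum. In the mouse genome (mm10) the genes lie in pairs that are transcribed away from each other. Zic1 (ENSMUSG00000032368.14, chr9:91358058-91365810, minus strand) lies beside Zic4 (ENSMUSG00000036972.14, chr9:91362413-91389348, plus strand). Zic5 (ENSMUSG00000041703.7, chr14:122456795-122465677, minus strand) lies beside Zic2 (ENSMUSG00000061524.8, chr14:122475435-122479852, plus strand).

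The coding sequences show how alike the members are, which decides whether reads can be given to a single gene. Shown here is the 99-base stretch in which the leading coding transcripts were most alike, at chr9:91364190-91364288 (minus strand) in Zic1, chr14:122476495-122476593 (plus) in Zic2, chr9:91379150-91379248 (plus) in Zic4 and chr14:122464046-122464144 (minus) in Zic5, all in coding exons. It is written 5′ to 3′ from the GENCODE M21 transcripts on mm10, and capitals mark bases that differ from Zic1.
Zic1: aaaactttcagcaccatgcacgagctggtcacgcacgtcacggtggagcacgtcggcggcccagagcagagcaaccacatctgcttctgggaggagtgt
Zic2: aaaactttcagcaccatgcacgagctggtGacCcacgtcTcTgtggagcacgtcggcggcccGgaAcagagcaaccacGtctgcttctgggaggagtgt
Zic4: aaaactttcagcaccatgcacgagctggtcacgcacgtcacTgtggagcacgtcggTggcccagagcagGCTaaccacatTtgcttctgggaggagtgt
Zic5: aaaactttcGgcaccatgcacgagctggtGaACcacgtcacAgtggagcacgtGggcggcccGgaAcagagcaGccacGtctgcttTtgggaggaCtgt
In this stretch 7 bases of Zic2, 6 of Zic4 and 12 of Zic5 differed from Zic1. The length is that by which the deposited effective length of a transcript falls short of its full length. No pair of members shared an identical run that long in the sense direction. The longest was 42 bases, between Zic1 and Zic4, and the shortest of the pairwise maxima was 20 bases, between Zic1 and Zic5. Opposite strands were not compared, and there the exons of Zic1 and Zic4 share 60 bases. The posterior standard deviation of the gene count was 0 in both libraries for Zic1 and Zic2 and at most 0.70 reads for Zic5. For Zic4 it was 7.13 reads in replicate 1 and 8.21 in replicate 2, on gene counts of 2372 and 2815.

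Over the whole coding sequence the leading transcripts hold 447 codons in Zic1, 529 in Zic2, 341 in Zic4 and 622 in Zic5. Translated identity over aligned codons was highest between Zic1 and Zic2, at 76.7%, and lowest between Zic2 and Zic5, at 54.0%. Zic4, the shortest, was 66.2% identical to Zic1, its neighbour on the chromosome, and 66.7% identical to Zic5. Zic2 and Zic5 are thus neighbours in the genome and had the lowest percent identity of the 6 pairs, over 487 aligned codons. Other measures differ: their longest identical run was 26 bases, against 20 for Zic1 and Zic5 and 21 for Zic4 and Zic5.

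The promoter windows of RefSeq (build GRCm38.p6), from 250 bases before to 50 bases after the annotated start, are shown because the transcripts described below differ in where they begin. The table held a window for Zic1, Zic4 and Zic5. They lie at chr9:91365719-91366018 (minus strand) for Zic1, chr9:91368722-91369021 (plus) for Zic4 and chr14:122465609-122465908 (minus) for Zic5, and are written 5′ to 3′ on the strand of the gene. Capitals mark the GC box (GGGCGG) and the CCAAT box (CCAAT), searched on both strands.
Zic1: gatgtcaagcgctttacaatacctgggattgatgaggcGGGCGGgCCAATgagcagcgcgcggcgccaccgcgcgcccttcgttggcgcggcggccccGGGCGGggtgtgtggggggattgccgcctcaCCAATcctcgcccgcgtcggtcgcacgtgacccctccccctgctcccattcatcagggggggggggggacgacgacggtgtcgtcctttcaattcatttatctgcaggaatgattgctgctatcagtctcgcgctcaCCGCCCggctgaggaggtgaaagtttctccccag
Zic4: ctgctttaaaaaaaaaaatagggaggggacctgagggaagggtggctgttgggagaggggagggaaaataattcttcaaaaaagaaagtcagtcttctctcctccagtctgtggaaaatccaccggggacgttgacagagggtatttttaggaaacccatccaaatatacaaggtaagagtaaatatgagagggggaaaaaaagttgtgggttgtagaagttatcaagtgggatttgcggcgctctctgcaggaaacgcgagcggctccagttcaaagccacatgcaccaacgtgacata
Zic5: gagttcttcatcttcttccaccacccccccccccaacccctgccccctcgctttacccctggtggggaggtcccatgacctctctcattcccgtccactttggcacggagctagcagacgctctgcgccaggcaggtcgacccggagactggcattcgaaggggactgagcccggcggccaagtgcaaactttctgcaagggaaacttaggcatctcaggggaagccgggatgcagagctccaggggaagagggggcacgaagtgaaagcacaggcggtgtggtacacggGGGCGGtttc
The Zic1 window was rich in G and C, at 65.3%, and held 3 GC boxes and 2 CCAAT boxes. The Zic5 window had a G and C content of 62.7% and 1 GC box, whereas the Zic4 window, at 46.0%, held neither motif. The median over all 32851 promoter windows was 52.7%. The ratio of observed to expected CpG was 0.969 for Zic1, 0.545 for Zic4 and 0.510 for Zic5, against a median of 0.384. A GC box was found in 35.7% and a CCAAT box in 37.4% of all windows, so single matches are common. The core letters GACCACCCA, bound by GLI proteins, were present in 0.253% of all windows. The letters CAGCAGG, a core bound by Zic proteins, were present in 10.5%. The TATA box, searched by its usual 6-letter core on both strands, was present in 13.6%. None of these was in the 3 windows shown, which says only that these letters are not there.

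The libraries held 33529531 estimated counts in replicate 1 and 35461403 in replicate 2, of which 97.0% and 97.1% were assigned to genes and 2.99% and 2.89% to ERCC spike-in RNA. TPM, the deposited unit of level, counts reads per length and scales each library to the same total, so genes can be compared within a library. At a length of 1 kb, 1 read was worth 0.0477 TPM in replicate 1 and 0.0462 in replicate 2, and a count of 0 allowed up to 0.143 and 0.138 TPM. The 6 defining genes of neural tube tissue were present in both libraries. Among them were Fabp7, a radial glial fatty acid binding protein, at 1395 and 1464 TPM, Tubb3, a neuronal tubulin, at 953 and 982 TPM, and Nes, an intermediate filament of progenitors, at 132.1 and 110.2 TPM. The lowest were Pax6, a progenitor transcription factor, at 20.1 and 18.8 TPM, and Sox2, a neural stem cell factor, at 38.9 and 37.9 TPM. Of 6 forebrain and midbrain genes, 0 reached 1 TPM in both libraries. The highest was Emx2, a cortical factor, at 0.42 TPM in replicate 1 and 1.69 TPM in replicate 2. Emx1 stood at 0.07 and 0.13 TPM and Otx2 at 0.07 in both, and En2 at 0 in replicate 1 and 0.04 TPM in replicate 2.

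All 4 Zic genes were expressed above 1 TPM in both libraries, as were 60.9% of protein-coding genes. Zic4 was the most abundant in TPM, at 49.16 in replicate 1 and 52.56 in replicate 2 (50.86 ± 2.40, SD, n = 2). Zic1, the member best known for its part in cerebellar and dorsal neural tube growth, stood at 14.89 and 15.73 TPM (15.3 ± 0.594). Zic5, known for a role in neural crest formation, stood at 8.82 and 11.26 TPM (10.04 ± 1.73). Zic2, whose human counterpart is a holoprosencephaly gene, stood at 10.47 and 9.16 TPM (9.815 ± 0.926). Zic4 thus lay far above the rest in both libraries, Zic1 above the chromosome 14 pair in both, and Zic5 and Zic2 overlapped.

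**Figure D1:**
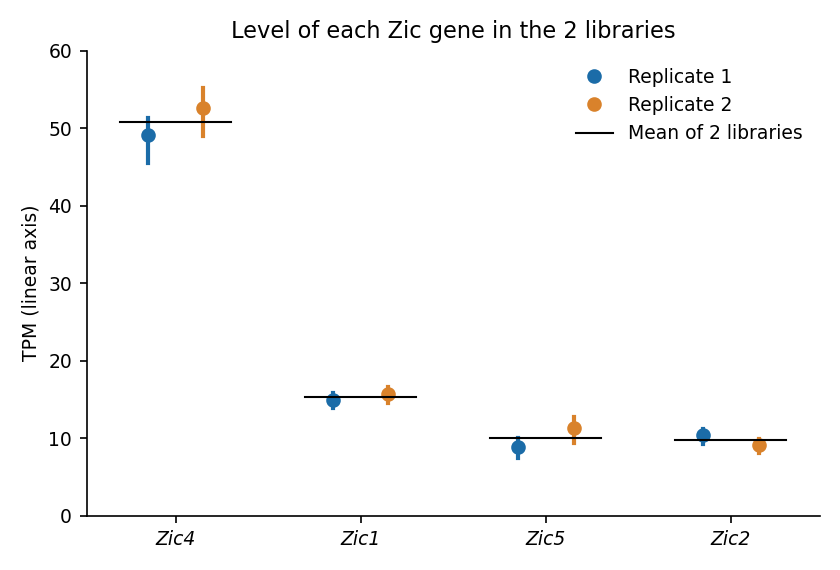
TPM of each Zic gene (vertical axis, linear) in replicate 1 and replicate 2, with vertical lines for the bounds of the posterior TPM that the authors deposited and a black bar for the mean of the 2 libraries. Zic4 sits near 50 TPM in both libraries, Zic1 near 15, and the values of Zic5 and Zic2 overlap around 10.

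The order was set by the log2 ratio of TPM between neighbours in each library. Zic4 exceeded Zic1 by a log2 ratio of 1.72 in replicate 1 and 1.74 in replicate 2 (1.73 ± 0.01, SD, n = 2). Zic1 exceeded Zic5 by 0.76 and 0.48 (0.62 ± 0.19), the same direction in both libraries. Zic5 and Zic2 changed places: their log2 ratio was -0.25 in replicate 1 and 0.30 in replicate 2 (0.03 ± 0.39), so their order is within the spread between the libraries. The order was not tested, since the exact permutation test on 2 libraries cannot give a p below 0.5. Together the 4 genes summed to 83.34 TPM in replicate 1 and 88.71 TPM in replicate 2. Of this sum Zic4 made up 59.0% and 59.2%, Zic1 17.9% and 17.7%, Zic2 12.6% and 10.3%, and Zic5 10.6% and 12.7%. The pair on chromosome 9 accounted for 76.9% and 77.0%, nearly the same share in both libraries.

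Set among all 22028 protein-coding genes, whose median TPM was 5.04 in replicate 1 and 5.18 in replicate 2, each Zic gene lay above the median. Zic4 ranked 3601 and 3447, above 83.6% and 84.4% of protein-coding genes. Zic1 lay above 63.4% and 64.1% of them. Zic2 lay above 58.4% and 56.1%, and Zic5 above 56.0% and 58.9%.

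Read numbers followed the order of the mean TPM but set Zic5 apart from Zic2. Zic4 had 2372 estimated reads in replicate 1 and 2815 in replicate 2, Zic1 had 1685 and 1801, Zic5 had 742 and 886, and Zic2 had 479 and 428. Zic2, with the shortest leading transcript at 2440 bases, therefore rested on the fewest reads although its TPM equalled that of Zic5 within the spread. The authors' deposited bounds for the posterior TPM were 9.21 to 11.2 and 8.03 to 9.91 for Zic2. For Zic5 they were 7.42 to 10.01 and 9.37 to 12.7. In each gene the bounds of the 2 libraries overlapped.

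The transcripts behind these levels differed between members. M21 annotates 3 transcripts for Zic1, 2 for Zic2, 12 for Zic4 and 2 for Zic5. Zic1-201, a protein-coding transcript of 5606 bases, held 96.27% of the Zic1 TPM in replicate 1 and 93.31% in replicate 2 (94.8% ± 2.09, SD, n = 2). Zic2-201, also protein-coding, held 90.64% and 88.97% of the Zic2 TPM (89.8% ± 1.18), and the remaining share of Zic2 lay in Zic2-202, annotated as a retained intron. Zic5-201 held 83.95% and 74.51% of the Zic5 TPM (79.2% ± 6.68). The rest of Zic5 was assigned to Zic5-202, a processed transcript of 705 bases, on only 17.96 and 37.67 estimated reads. For these 3 genes a single coding transcript carried most of the level in both libraries.

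Zic4 did not have such a transcript. Its leading coding transcript, Zic4-201, held 26.5% of the gene's TPM in replicate 1 and 32.27% in replicate 2 (29.4% ± 4.08, SD, n = 2). Next came Zic4-211, annotated as a retained intron, at 21.24% and 24.18% (22.7% ± 2.08). Zic4-202, a processed transcript, followed at 19.57% and 12.94% (16.3% ± 4.69). Among the transcripts that begin inside the RefSeq promoter window shown above, Zic4-211 took 551 reads in replicate 1 and 694 in replicate 2, and the coding isoform Zic4-207 took 24.31 and 21.94. Zic4-204, a coding isoform that also begins there, was given 0 reads in both libraries, with a posterior standard deviation of 19.03 and 28.15 reads. Zic4-201, which took 1035 and 1393 estimated reads, begins further downstream. Estimated counts of transcripts that share exons are uncertain in this way: the posterior standard deviation of Zic4-201 was 43.85 and 48.11 reads.

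By annotated type, coding transcripts made up 35.3% and 39.5% of the Zic4 TPM (37.4% ± 2.98), the 4 retained-intron transcripts 36.6% and 40.7% (38.7% ± 2.88), and the 2 processed transcripts 28.1% and 19.8% (24.0% ± 5.86). The coding share was 99.2% ± 1.08 for Zic1, 89.8% ± 1.18 for Zic2 and 79.2% ± 6.65 for Zic5. Over the 11076 protein-coding genes with a mean of at least 5 TPM, the median coding share was 90.7%, and 5.73% of genes had a lower share than Zic4. Among the 6819 of them that have an annotated retained-intron transcript, the median share of such transcripts was 9.70%, and 89.7% of genes had a lower share than Zic4. Zic2, at 10.1%, lay near the middle of that distribution. Unspliced RNA was not measured separately, and its part in these shares was not tested.

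**Figure D2:**
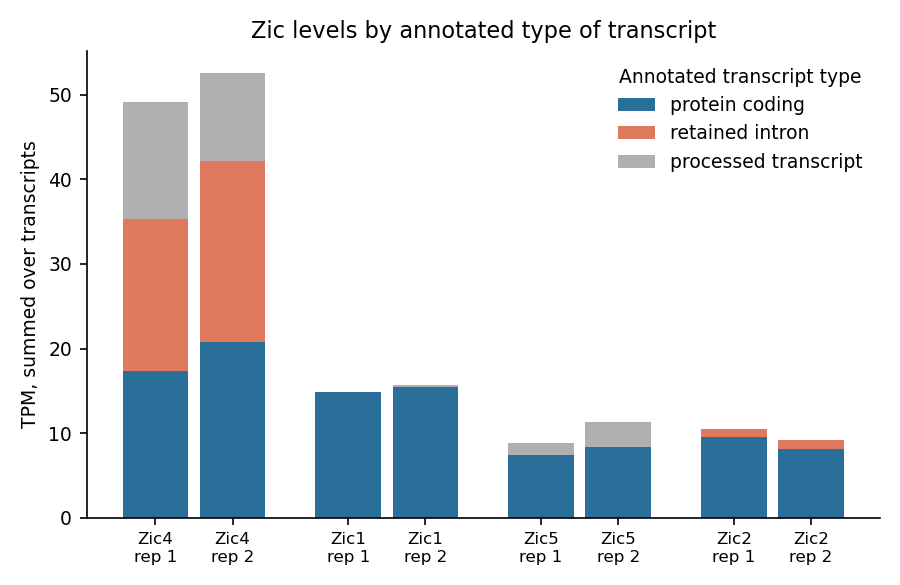
TPM (vertical axis) of each Zic gene in replicate 1 and replicate 2, stacked by the annotated type of the transcripts the reads were assigned to. Coding transcripts fill nearly all of the Zic1 bars but only 17.34 and 20.76 TPM of the Zic4 bars.

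When only coding transcripts were summed, a choice made after seeing the data, the distance between Zic4 and Zic1 shrank. Zic4 then stood at 17.34 and 20.76 TPM (19.05 ± 2.42, SD, n = 2) and Zic1 at 14.9 and 15.49 TPM (15.2 ± 0.417), a log2 ratio of 0.32 ± 0.14 in place of 1.73. Zic4 was still the higher of the pair in both libraries. Zic2 stood at 9.49 and 8.15 coding TPM and Zic5 at 7.41 and 8.39 coding TPM, which again overlapped.

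Each Zic pair shares a locus. The starts of Zic1-201 and Zic4-204 lie 3202 bases apart, and those of Zic5-201 and Zic2-201 lie 9758 bases apart. Zic4-204, however, was given 0 reads in both libraries. The leading Zic4-201 begins further away, at chr9:91378642, with the start of Zic1-201 at chr9:91365768. The annotated spans of Zic1 and Zic4 overlap by 3398 bases, but their exons share only 60. That overlap involves Zic4-208, whose estimated count was 2.10 in replicate 1 and 0 in replicate 2. On chromosome 9 the more abundant partner exceeded the other by the log2 ratio of 1.73 ± 0.01 given above, and on chromosome 14 the partners were level within their spread.

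Of the 17 other genes annotated within 100 kb, 8 lie on the chromosome 9 side, where 3 reached 1 TPM in both libraries, and 9 on the chromosome 14 side, where 5 did. The strongest signal near the chromosome 9 pair was Gm37477, an unverified transcript on the opposite strand to Zic4, at 7.70 and 8.18 TPM. Of its 884 exon bases, 468 lie inside an exon of the retained-intron transcript Zic4-211. Its count had the same posterior standard deviation as that of Zic4, 7.13 reads in replicate 1 and 8.21 in replicate 2. No strand-specific step is named for these libraries, so reads of the 2 genes cannot be told apart there. The long noncoding Gm29478 stood at 2.92 and 4.62 TPM, and A730094K22Rik, another unverified transcript, at 2.01 and 2.95 TPM; both were well below Zic4. The other 5 genes near that pair, Gm37812, Gm18378, Gm37457, Gm37040 and Gm28652, did not reach 1 TPM in both libraries.

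On the chromosome 14 side the noncoding gene 2610035F20Rik begins 236 bases from the start of Zic2-201 and runs the other way, so it lies between Zic5 and Zic2. It reached 2.86 TPM in replicate 1 and 4.21 TPM in replicate 2, on 92 and 156 reads. Both values were below those of Zic2 and Zic5. Clybl, a mitochondrial citramalyl-CoA lyase gene, stood at 8.24 and 9.95 TPM, close to the Zic pair. Pcca, which encodes a subunit of propionyl-CoA carboxylase, stood at 25.86 and 27.62 TPM and was the highest gene within the window. The symbol Gm5089 names a pair of genes there: an antisense gene (ENSMUSG00000115263.1) at 8.10 and 10.9 TPM, and a gene annotated as coding (ENSMUSG00000064052.2) at 1.05 and 1.02 TPM. Gm25464, Gm10837, Gm9399 and Gm18143 did not reach 1 TPM in both libraries, and Gm18143 had no reads in either.

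**Figure D3:**
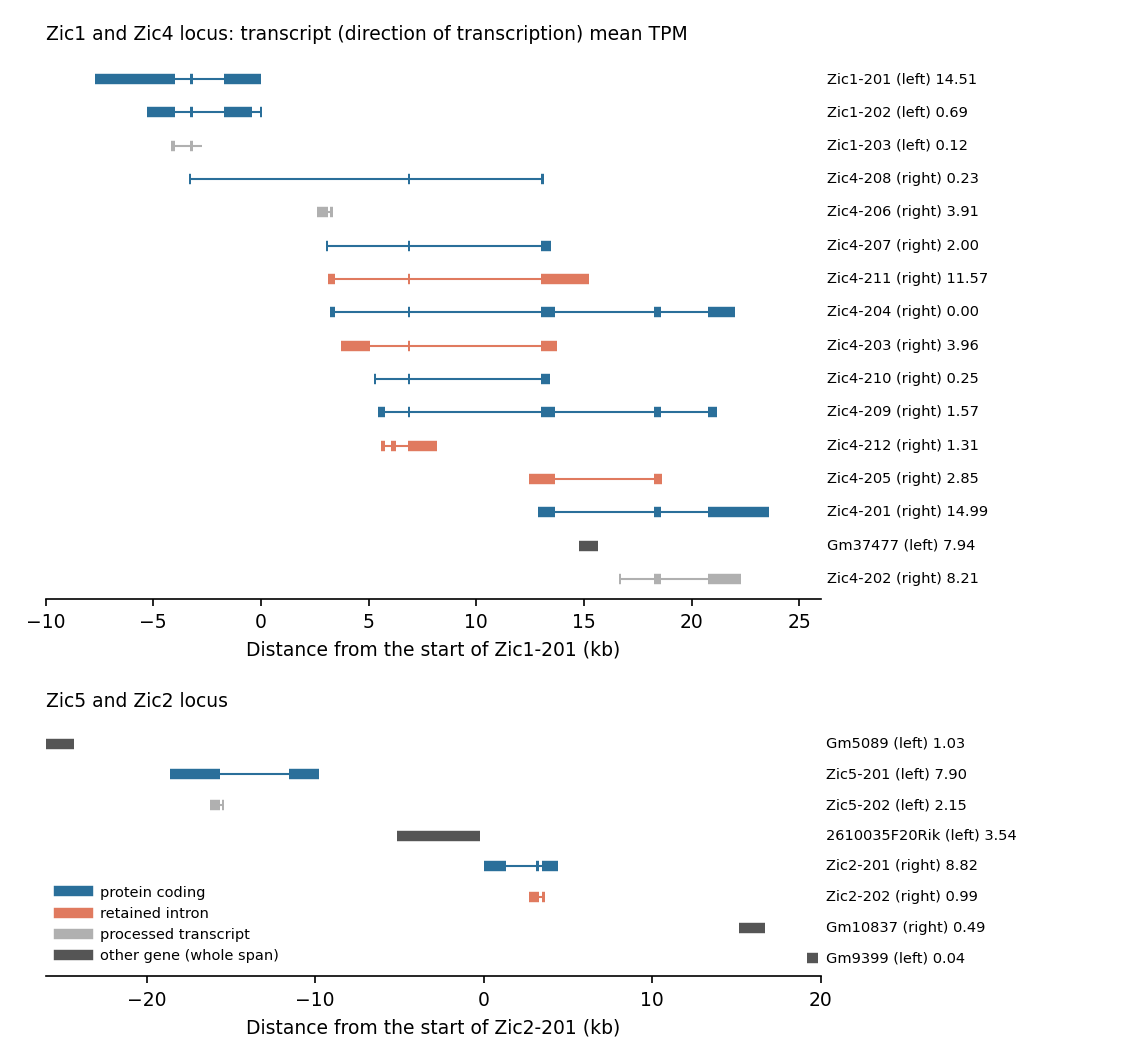
Annotated transcripts of the Zic genes and neighbouring genes by distance in kb from the start of Zic1-201 (top) or Zic2-201 (bottom), with exons as thick blocks for Zic transcripts, the whole span as a thick bar for other genes, and the direction of transcription and mean TPM of the 2 libraries at the right. Zic4-201 begins downstream of most Zic4 isoforms, and 2610035F20Rik begins beside the start of Zic2-201.

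The zinc finger relatives of the Zic proteins were all expressed, with 6 of 6 at or above 1 TPM. The list median was 3.94 TPM in replicate 1 and 4.53 TPM in replicate 2. Gli3, the main repressor of the hedgehog pathway, stood at 17.54 and 17.09 TPM, and Gli2, its main activator, at 4.38 and 5.22 TPM. Gli1, itself a target of hedgehog signalling, stood at 3.14 and 2.85 TPM. Of the GLI-similar genes, Glis2 stood at 28.7 and 28.79 TPM, Glis1 at 3.49 and 3.83 TPM and Glis3 at 1.36 and 1.09 TPM. By gene total, Zic4 was above each of these 6 genes in both libraries, and Zic1, Zic2 and Zic5 were below Glis2 and Gli3 and above the other 4. Coding transcripts of Zic4 alone stood at 17.34 and 20.76 TPM. That was below the Glis2 total in both libraries and below the Gli3 total in replicate 1. Coding transcripts of the 6 relatives were not summed.

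Genes for 8 proteins described as binding a Zic protein were all expressed above 1 TPM, with a median of 37.5 TPM in replicate 1 and 33.4 TPM in replicate 2. Mbd3 and Chd4, subunits of the NuRD chromatin remodelling complex, were the highest, at 246.1 and 239.5 TPM and at 90.2 and 95.6 TPM. Xrcc6 and Xrcc5, which encode the Ku proteins of DNA end joining, stood at 41.8 and 41.5 TPM and at 35.5 and 35.6 TPM, and Prkdc, the kinase they recruit, at 6.92 and 6.03 TPM. The RNA helicase gene Dhx9 stood at 39.5 and 28.9 TPM. Tcf7l2, a Wnt effector, stood at 30.6 and 31.2 TPM. Mdfi, which encodes an inhibitor of myogenic factors that also binds Zic proteins, was at 10.89 and 10.16 TPM, a level near those of Zic2 and Zic5.

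Among 7 genes described as regulated by a Zic protein, 5 were expressed above 1 TPM in both libraries. Apoe, a lipid carrier, stood at 159.5 and 163.1 TPM, and Pax3, a dorsal progenitor factor, at 34.89 and 35.83 TPM. The ephrin receptor genes Epha4 and Ephb1, which act in axon guidance, stood at 24.74 and 22.02 TPM and at 15.01 and 16.71 TPM. Atoh1, the determinant of the dorsalmost interneurons, stood at 3.75 and 6.64 TPM. Slc6a4, the serotonin transporter, at 0.70 and 0.39 TPM, and Drd1, a dopamine receptor, at 0.59 and 0.42 TPM, were below 1 TPM.

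By level alone, Zic1 was nearest to Ephb1 among the 44 genes of the relative, partner, target, dorsal and ventral lists (Euclidean distance 0.08 in log2(TPM + 1) over the 2 libraries). Zic2 was nearest to Nkx6-2 (0.14) and Zic5 to Mdfi (0.31). With only 2 libraries of 1 tissue this likeness is one of level.

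**Figure D4:**
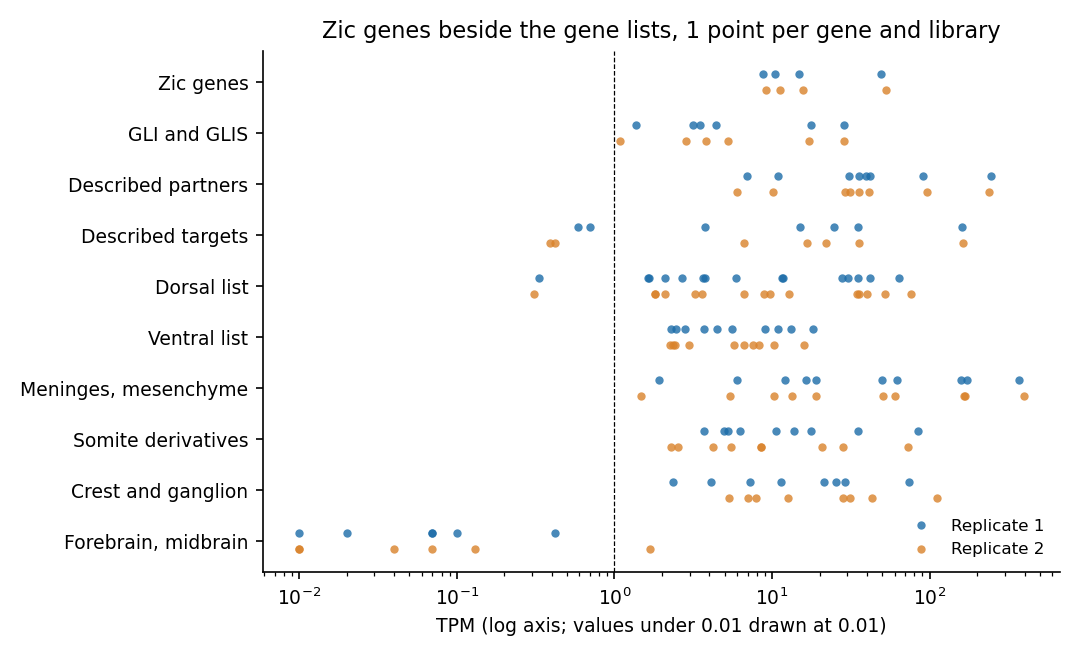
TPM (horizontal log axis) of the Zic genes and of the genes of 9 lists, with 1 point per gene and library and a dashed line at 1 TPM. The Zic genes lie between 8.82 and 52.56 TPM, and the forebrain and midbrain genes lie below 1 TPM in replicate 1.

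The libraries were compared gene by gene with an exact two-sided binomial test of the rounded estimated counts, scaled by TMM and adjusted by the Benjamini-Hochberg method over the 20125 genes that held 10 counts or more in 1 library or both. This test knows only counting error: it compares these 2 libraries and not a condition. It called 20.3% of genes, 10.5% as higher and 9.78% as lower in replicate 2. Of the Zic genes it called 2 of 4. Zic4 was higher in replicate 2 (log2 ratio 0.16, adjusted p = 0.00104) and Zic2 was lower (log2 ratio -0.25, adjusted p = 0.0479). Zic1 had a log2 ratio of 0.01 (adjusted p = 0.956) and Zic5 one of 0.17 (adjusted p = 0.0865), and neither passed. With scaling by spike-in RNA in place of TMM, Zic2 was not called (adjusted p = 0.128, exact binomial test) and Zic5 was (adjusted p = 0.0110).

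The sizes of these differences were set beside those of genes over a broad span of levels. Over the 10088 genes tested with a mean of 5 to 100 TPM, the median size of the log2 ratio was 0.09 and its 90th percentile 0.26. All 4 Zic genes lay inside that percentile, though Zic2 came close to it. All but Zic1 lay above the median. An edgeR exact test with a common dispersion, estimated with both libraries taken as replicates of 1 group (biological coefficient of variation 7.36%), called 1.13% of genes and 0 of 4 Zic genes. Its adjusted p was 0.983 for Zic2 and 1 for the others, and no Zic gene had an unadjusted p below 0.05. The edgeR dispersion came from the same 2 libraries that the test compares. Few calls are therefore built in, here and for the lists below, and a gene without a call is not shown to be unchanged. The Zic5 difference was larger in TPM, from 8.82 to 11.26, than in counts. Its deposited effective length was 4016 bases in replicate 1 and 3633 in replicate 2, and more of its reads were assigned to the short Zic5-202 in replicate 2. The coefficient of variation of TPM over the 2 libraries was 17.2% for Zic5, 9.44% for Zic2, 4.73% for Zic4 and 3.88% for Zic1.

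**Figure D5:**
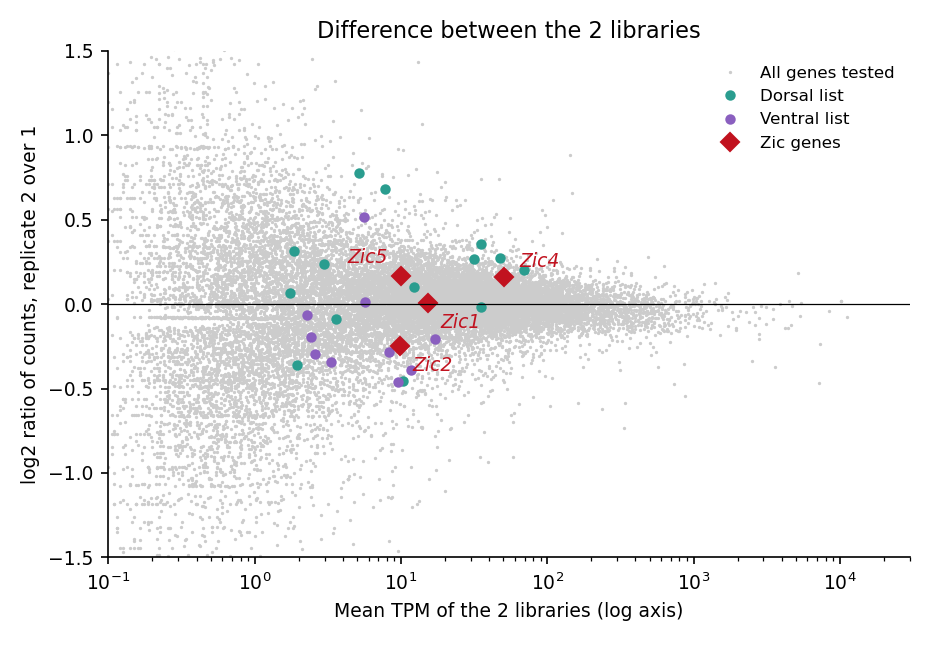
The log2 ratio of scaled counts of replicate 2 over replicate 1 (vertical axis, limited to 1.5 either way) against mean TPM (horizontal log axis, from 0.1) for all genes tested, with the dorsal list, the ventral list and the Zic genes marked. The Zic genes lie between -0.25 and 0.17, within the band of other genes of their level.

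Genes near the Zic loci and related genes were read against the same background. Of the 12 neighbours with enough counts to be tested, 2 were called higher in replicate 2, against 10.5% of all genes tested. Both lie on chromosome 14: 2610035F20Rik (log2 ratio 0.66, adjusted p = 0.00353, exact binomial test) and the antisense gene Gm5089 (0.39, adjusted p = 0.0221). Zic2, whose start adjoins that of 2610035F20Rik, had the opposite sign. No neighbour on chromosome 9 was called, and Gm29478 had a log2 ratio of 0.60 (adjusted p = 0.139). Of the 6 GLI and GLIS genes none was called by the exact binomial test or by edgeR, and none had an unadjusted p below 0.05 in edgeR, whereas Gli1 (0.0415) and Glis1 (0.0406) had one in the binomial test. Of the 8 partners, Dhx9 (log2 ratio -0.39) and Mbd3 (-0.07) were called lower, against 9.78% of all genes tested. Of the 7 targets, the exact binomial test called Atoh1 higher (0.78, adjusted p = 6.65e-07) and Epha4 lower (-0.22, adjusted p = 3.76e-06). The shares of all genes tested were 10.5% and 9.78%. The edgeR test, which called 1.13% of all genes in either direction, called 0 of the neighbours and partners, and Atoh1 alone among the targets.

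The lists of dorsal and ventral genes were compared between the libraries in the same way. Of 15 roof plate and dorsal progenitor genes, 14 reached 1 TPM in both libraries. The list median was 5.87 TPM in replicate 1 and 8.88 TPM in replicate 2. Msx3, a dorsal homeobox gene, was the highest, at 63.8 and 75.6 TPM, and Pax3 was among the 3 highest. The lowest were the roof plate genes Gdf7, a BMP family ligand, at 0.33 and 0.31 TPM, and Lmx1a, at 1.66 and 1.80 TPM. Of the 14 tested, 6 were called higher in replicate 2, against 10.5% of all genes tested. Among them were Atoh1 (log2 ratio 0.78), Wnt1 (0.68), Msx1 (0.35), Olig3 (0.27) and Msx3 (0.20). A further 2 were called lower, Msx2 (-0.46) and Pax7 (-0.36), against 9.78% of all genes tested. The median log2 ratio was 0.22, against -0.00 over all genes tested. The edgeR test, which called 1.13% of all genes in either direction, called Atoh1 and Wnt1 only.

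All 10 floor plate and ventral progenitor genes were expressed above 1 TPM. The highest were Irx3, at 18.3 and 16.0 TPM, Dbx1, at 13.2 and 10.3 TPM, and Nkx6-2, at 10.9 and 8.26 TPM. The lowest were Olig2, the motor neuron progenitor factor, at 2.30 and 2.26 TPM and Foxa2, a floor plate factor, at 2.46 and 2.41 TPM. The binomial test called 4 of 10 lower in replicate 2, against 9.78% of all genes tested. These were Nkx6-1 (log2 ratio -0.28), Nkx6-2 (-0.46), Dbx1 (-0.39) and Irx3 (-0.21). It called 1 of 10 higher, Dbx2 (0.51), against 10.5% of all genes tested. The median log2 ratio of the list was -0.25, against -0.00 over all genes tested. The edgeR test, which called 1.13% of all genes in either direction, called 0 of 10, with an unadjusted p below 0.05 for 3.

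Genes listed as markers of other tissues were present beside the neural genes, and which cells made their RNA was not measured. All 10 meningeal and connective mesenchyme genes exceeded 1 TPM, led by the collagen genes Col3a1 at 369.7 and 393.9 TPM, Col1a1 at 171.6 and 165.2 TPM and Col1a2 at 158.3 and 167.5 TPM, down to Foxc1 at 6.02 and 5.41 TPM and Tbx18 at 1.91 and 1.48 TPM. Their summed level was 867 TPM in replicate 1 and 887 TPM in replicate 2, and 2 of 10 were called lower, against 9.78% of all genes tested. All 9 somite genes were expressed, led by Uncx at 83.97 and 73.25 TPM, Myog at 35.06 and 28.17 TPM and Tcf15 at 17.67 and 20.74 TPM, with Pax9 at 3.72 and 2.29 TPM and Myf5 at 5.29 and 2.54 TPM the lowest. Their sum was 181 TPM in replicate 1 and 154 TPM in replicate 2, and 7 of 9 were called lower, against the same 9.78%. All 8 crest and ganglion genes were expressed, with Prdm12 among the 3 highest at 29.2 and 42.8 TPM and Avil at 4.08 and 7.87 TPM and Scn10a at 2.35 and 5.31 TPM the lowest. Their sum was 175 TPM in replicate 1 and 246 TPM in replicate 2, and 6 of 8 were called higher, against 10.5% of all genes tested. The edgeR test, which called 1.13% of all genes in either direction, called 2 somite genes lower (Myf5 and Pax1), 3 crest and ganglion genes higher (Avil and Scn10a among them) and 0 meningeal genes, where 1 had an unadjusted p below 0.05. None of the genes of these 3 lists was at 0. Zic genes are also known from somite, meningeal and crest cells, and the part of these tissues in the Zic levels and in their differences between the libraries was not tested.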

How the data were processed

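PolyA RNA of 2 pools of neural tube was sequenced by the submitters, per the labels' protocols: mirVana extraction, oligo-dT priming with the SMARTer ultra-low kit, Nextera tagmentation and ERCC spike-ins, with no strand-specific step named. The authors deposited, for each library, estimated counts, TPM and, for transcripts, the percent of the gene's TPM, on mm10 with GENCODE M21 and M4. The sources used here do not name the aligner, the quantifier or their versions. The deposited posterior standard deviations and TPM bounds were used as they stand. Replicates are separate pools per the labels.

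The members were matched by symbol in M21. Estimated counts were rounded and tested with an exact binomial test (R 4.3.3), TMM scaling from edgeR 4.0.16, a minimum of 10 counts in either library, a prior count of 2 for log2 ratios and Benjamini-Hochberg adjustment, called below 0.05. The procedure was tested on simulated counts that held counting error only, so that check does not cover other variation between libraries. Expressed means at least 1 TPM in both libraries. Alternatives were DESeq2 1.42.0 size factors, spike-in scaling, no filter, the edgeR exact test, M4, posterior mean TPM, a pseudocount of 1, other TPM thresholds and leaving out a library. Intervals and limits cover counting error only.

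Named are the 4 members, all genes within 100 kb, all members of the relative, partner and target lists, the 3 highest and 2 lowest of each other list, the dorsal and ventral genes called, and for each member the nearest gene by level. The members and lists were chosen with earlier results of these data known. Other genes named were chosen after their values were seen. Some genes that this rule names are not reported here.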

Additional observations from a re-analysis of the deposited data

How the results depend on the processing

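Most results kept their direction and their side of the threshold. Of the alternative values, 101 were labelled the same and 12 moved, 4 lost and 1 gained a call, and 2 changed sign. For levels, log2 ratios and transcript shares, moved means by more than the SD of the 2 libraries. Leaving out 1 of 2 libraries always shifts a mean by less than that SD. Those settings could change a sign but could not count as moved, so they are no check of size. The M4 annotation moved the level of Zic1 to 16.065 TPM. Counting protein-coding transcripts only, chosen after seeing the data, gave Zic2 8.82, Zic4 19.05 and Zic5 7.90 TPM, and log2 ratios of 0.32 for Zic4 over Zic1, 0.95 for Zic1 over Zic5 and -0.16 for Zic5 over Zic2, the last with its sign changed. A pseudocount of 1 lowered the log2 ratio of Zic4 over Zic1 to 1.67. Leaving out each library in turn, Zic5 over Zic2 ranged from -0.25 (without replicate 2) to 0.30 (without replicate 1), and the number of expressed forebrain and midbrain genes from 0 to 1. The difference of Zic2 lost its call with spike-in scaling (log2 ratio -0.19, adjusted p = 0.128), with no filter (-0.25, 0.130, more genes tested) and with the edgeR exact test (-0.25, 0.983); that of Zic4 lost it with edgeR alone (0.16, adjusted p = 1). Zic5 gained a call with spike-in scaling (0.22, adjusted p = 0.0110), under which the median log2 ratio of all genes was 0.05, against -0.00 with TMM; the cause was not tested. The exact binomial test called 2112 genes higher and 1968 lower, against 3891 and 1171 with spike-in scaling, 1578 and 1410 with no filter, and 87 and 140 with edgeR. At a threshold of 5 TPM, 2 GLI and GLIS, 8 dorsal, 5 ventral and 5 somite genes counted as expressed. No paired analysis was possible because the study holds 1 group. Depth limits Zic2 most, with 479 and 428 reads.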
